A study of Homo sapiens with 12 samples.

Results

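Induced-K303R regions are stretches of open chromatin in which peaks were listed in both MDA-MB-453 libraries with induced K303R estrogen receptor alpha and in none of the other 10 libraries of the study. Peaks of all 12 libraries on chromosomes 1 to 22 and X were merged wherever they shared at least 1 bp, which gave 166523 regions, and 1015 of these met the rule (0.610%). They were selected on the deposited peak calls, so the strength of their peaks is no independent finding. The assay was ATAC-seq, which reads open chromatin through the places where a transposase can insert sequencing adapters. MDA-MB-453 is an established human breast cancer line of luminal type. K303R replaces a lysine in the hinge of the receptor.

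The groups were K303R with doxycycline and estradiol (K303R Dox+E2) and K303R with doxycycline (K303R Dox), set against K303R with E2, K303R untreated, and 4 libraries each of Y537S and wild-type (WT) receptor under the same treatments. Every line carried an ectopic receptor under doxycycline control and was grown in McCoy's 5A medium with serum. Doxycycline was given at 2 ug/mL and E2 at 1 nM for 2 days. Each group was 1 library, so no difference between groups has a replicate check, and no p-value is given. The sources used here do not say whether each line is a single clone.

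Estrogen receptor alpha is a nuclear receptor that binds DNA, often at enhancers far from genes, and recruits coactivators that open and modify chromatin. In luminal breast cells the forkhead factor FOXA1 and the zinc-finger factor GATA3 are known partners at such sites. The lysine changed in K303R is a known acetylation site, and the mutation is known from breast tumours and from work on receptors with raised sensitivity to estrogen.

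All 10 luminal markers, among them KRT8, KRT18, GATA3, FOXA1 and ERBB2, had a peak within 1 kb of a gene end in both induced K303R libraries, and 7 to 10 had one across the 12 libraries. None of the 3 basal markers KRT5, KRT14 and TP63 had one in any library. Of markers of other cells, CD68, CD3E and COL1A1 had one in K303R Dox+E2, and CD68 and COL1A1 in K303R Dox. The lists held 39522 to 133963 summits. The K303R untreated library differed from the rest, with a median pileup 24.9 times background at the 16630 regions open in every library, against 47.1 to 102 times in the others. By a tag in the peak names, the 4 K303R libraries belong with WT untreated and WT E2, the 4 Y537S libraries stand by themselves, and so do both WT libraries with Dox; the sources used here do not say what the tag records.

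The regions could be tied to a sequence at 5 gene starts, where a region overlapped the 300 bases around a start that RefSeq lists (GRCh38.p14; 22 of the 23 chromosomes were covered). The 250 bases upstream of 4 of these starts are shown, the 3 with the largest smaller −log10 q and the one that holds a forkhead match. Capitals mark matches to the motifs searched. ENTREP1 encodes an endosomal membrane protein (chr9:69324965-69325214, plus strand). LOC102724081 (chr2:168430743-168430992, minus strand) and LINC00706 (chr10:6779181-6779430, minus strand) are listed genes with no protein known here. LOC124902502 starts inside TCF7L2, which encodes a transcription factor of Wnt signalling (chr10:112952343-112952592, minus strand).
ENTREP1: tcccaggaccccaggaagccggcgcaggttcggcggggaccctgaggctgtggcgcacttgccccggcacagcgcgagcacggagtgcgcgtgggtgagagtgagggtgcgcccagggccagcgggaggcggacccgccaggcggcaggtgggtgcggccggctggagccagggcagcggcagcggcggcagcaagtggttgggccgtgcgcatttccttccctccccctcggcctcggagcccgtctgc
LOC102724081: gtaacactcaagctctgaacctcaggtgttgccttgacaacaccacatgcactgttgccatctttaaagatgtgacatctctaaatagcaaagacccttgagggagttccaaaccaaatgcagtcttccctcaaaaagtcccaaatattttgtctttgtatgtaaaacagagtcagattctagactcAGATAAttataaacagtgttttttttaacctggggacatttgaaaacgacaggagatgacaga
LOC124902502: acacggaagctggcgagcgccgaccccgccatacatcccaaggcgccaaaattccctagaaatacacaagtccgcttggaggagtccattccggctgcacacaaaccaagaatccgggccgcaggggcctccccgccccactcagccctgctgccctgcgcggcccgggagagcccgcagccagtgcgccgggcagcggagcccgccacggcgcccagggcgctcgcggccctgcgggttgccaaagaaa
LINC00706: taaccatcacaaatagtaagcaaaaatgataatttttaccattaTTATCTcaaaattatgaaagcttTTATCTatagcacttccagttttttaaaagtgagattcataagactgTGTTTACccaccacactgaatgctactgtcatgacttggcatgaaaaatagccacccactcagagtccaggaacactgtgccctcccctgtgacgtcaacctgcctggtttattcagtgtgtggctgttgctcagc

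The ENTREP1 region had summit pileups of 5 in K303R Dox+E2 and 7 in K303R Dox, with its summit 32 bases upstream of the start. LOC102724081 had pileups of 4 in K303R Dox+E2 and 5 in K303R Dox, LOC124902502 had 5 and 4 in the same libraries, and LINC00706 had 3 and 4. As the rule requires, no other library had a peak in any of these regions. Motifs were searched on both strands in the 250 bases upstream. The palindromic estrogen response element was in none of the 5 promoters and in 0.0399% of the 35116 listed promoters. The forkhead motif TGTTTAC was in 1 of the 5, at LINC00706, and in 2.98% of all, and the GATA motif AGATAA was in 2, at LINC00706 and LOC102724081, and in 9.17% of all. AP-1 (TGANTCA, 6.57% of all promoters), the second forkhead form TGTTTGC (3.23%) and the androgen or glucocorticoid element ACANNNTGT (4.61%) were in none of the 5. These matches describe letters in a window and do not show binding.

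The regions were weak. A summit pileup is the number of fragments stacked at the highest point of a peak, and it was recovered from the fold enrichment that the authors deposited. In K303R Dox+E2 the pileup ranged from 3 to 15 with a median of 5, and in K303R Dox from 3 to 11 with a median of 5. The smaller of both pileups was 3 or 4 in 703 of the 1015 regions (69.3%) and 7 or more in 21. By the deposited −log10 q, the strength of a peak after adjustment within its library, the median was 4.89 in K303R Dox+E2 and 4.64 in K303R Dox. The smaller −log10 q of both had a median of 3.29 (quartiles 2.21 and 4.64) and a highest value of 9.47. Thus 94 regions (9.26%) reached 5 in both libraries and none reached 10, while 40.1% of the other 49648 regions with a peak in both induced K303R libraries reached 10. These values chose the regions and are given as a description.

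**Figure D1:**
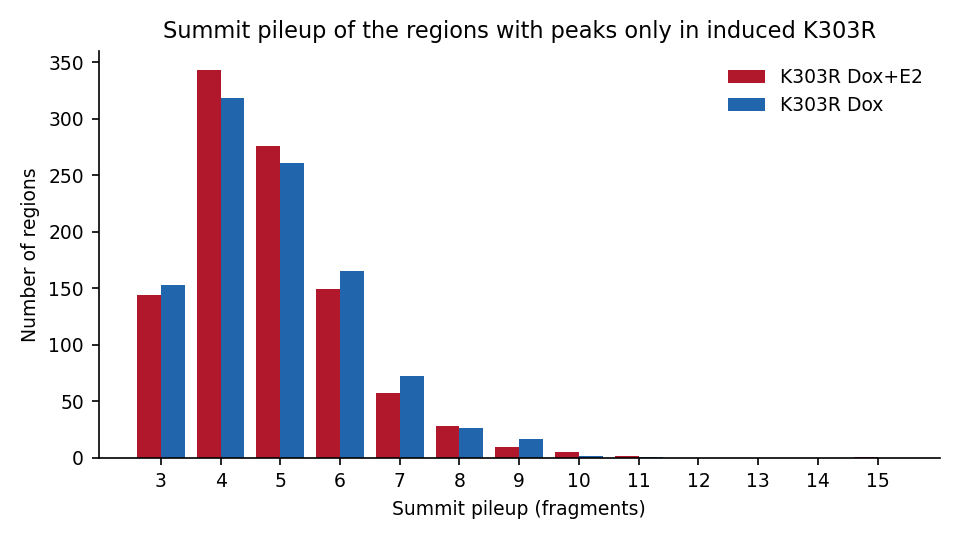
Number of induced-K303R regions (vertical axis) at each summit pileup in fragments (horizontal axis) in K303R Dox+E2 and in K303R Dox. Most bars stand at 3 to 6 fragments, 4 is the most frequent value in both libraries, and 21 regions reached 7 in both.

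At the edge of the rule, 153 regions tied at the smallest −log10 q of 2.04, which is the lowest value listed in K303R Dox. In genome order the first of these lay inside CAMTA1, ZNF362, MAST2, FYB2 and NFIA, with pileups of 5, 6, 6, 5 and 3 in K303R Dox+E2 and of 3 in K303R Dox for each. Just outside the rule were 1327 regions with a peak in both induced K303R libraries and in exactly 1 other library, and that library was most often WT Dox (401 regions), then Y537S E2 (224).

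The near misses included stronger regions than the members. The region inside STX18, which encodes a membrane fusion protein of the endoplasmic reticulum (chromosome 4, 4540839 to 4541338), had pileups of 11 in K303R Dox+E2 and 16 in K303R Dox, against 8 in WT Dox. The region inside GATAD2A, a subunit gene of the NuRD chromatin remodeller (chromosome 19, 19403401 to 19403950), had 14 and 9 in the same K303R libraries, against 6 in Y537S Dox+E2. The region inside MAP4K3, a kinase gene (chromosome 2, 39304833 to 39305466), had 12 and 9, against 4 in WT E2. Others among the 10 strongest lay inside SGK3, RHOQ, SUCLG2, CRKL and GALNT7, 25.9 kb from LOC124900217, and in a stretch of chromosome 8 over 100 kb from any gene. The RHOQ region had the higher raw pileup in the other library, with 9 in each induced K303R library against 13 in WT Dox. Background was also higher in WT Dox (0.361) than in K303R Dox+E2 (0.192) and K303R Dox (0.21), and these pileups are not scaled for it. The SUCLG2 region, in a gene of the citric acid cycle, had pileups of 8 in K303R Dox+E2 and 11 in K303R Dox, against 7 in K303R untreated.

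Missing peaks in the other libraries were next set against what those libraries could list. Each region's smaller pileup was scaled to another library by the ratio of the library backgrounds, taking the K303R pileups as free of counting error, and compared with the lowest pileup listed there. In K303R untreated the scaled pileup had a median of 8.43 against a lowest listed pileup of 5, and all 1015 regions reached it. In K303R E2 the median was 4.04 against 4, and 750 regions (73.9%) reached it.

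All 1015 also reached the limit in each of the 4 Y537S libraries, in WT E2 and in WT Dox. A count of 1015 is set by the libraries, since even a pileup of 3, the lowest in either induced K303R library, scaled above the limit there. In WT Dox+E2 750 reached it, and in WT untreated 312, where the median was 2.73 against 3. The limit of every other library was reached by 312 regions (30.7%), and that of both K303R libraries without Dox by 750. These scaled values are the pileups that selected the regions, and their counting error was not carried along, so they do not show that a peak would have been listed.

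A second scaling, chosen after seeing the data, gave another answer for K303R. It used the median pileup of the always-open regions, those with a peak in every library, which was low in K303R untreated although that library had the highest background (0.442). The median scaled pileup was then 2.59 in K303R untreated against 5, which 2 regions reached, and 3.53 in K303R E2 against 4, which 312 regions (30.7%) reached. In the Y537S libraries all 1015 still reached the limit, with medians of 5.65 to 8.00 against 4. In the WT libraries 45 (untreated) to 750 (E2 and Dox) reached it, and 2 regions reached the limit of all 10 libraries, the one inside TNFRSF11B and one on chromosome 19 far from genes. Whether most regions were less open in K303R untreated therefore depends on the scaling. For the Y537S libraries both scalings put every region above the limit, but the library values fixed this. By signal the smallest scaled pileup of any region was already 4.24 to 6 across those libraries, against 4. It therefore says nothing about these regions in particular. The regions are named here by their rule and not as opened by induction.

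**Figure D2:**
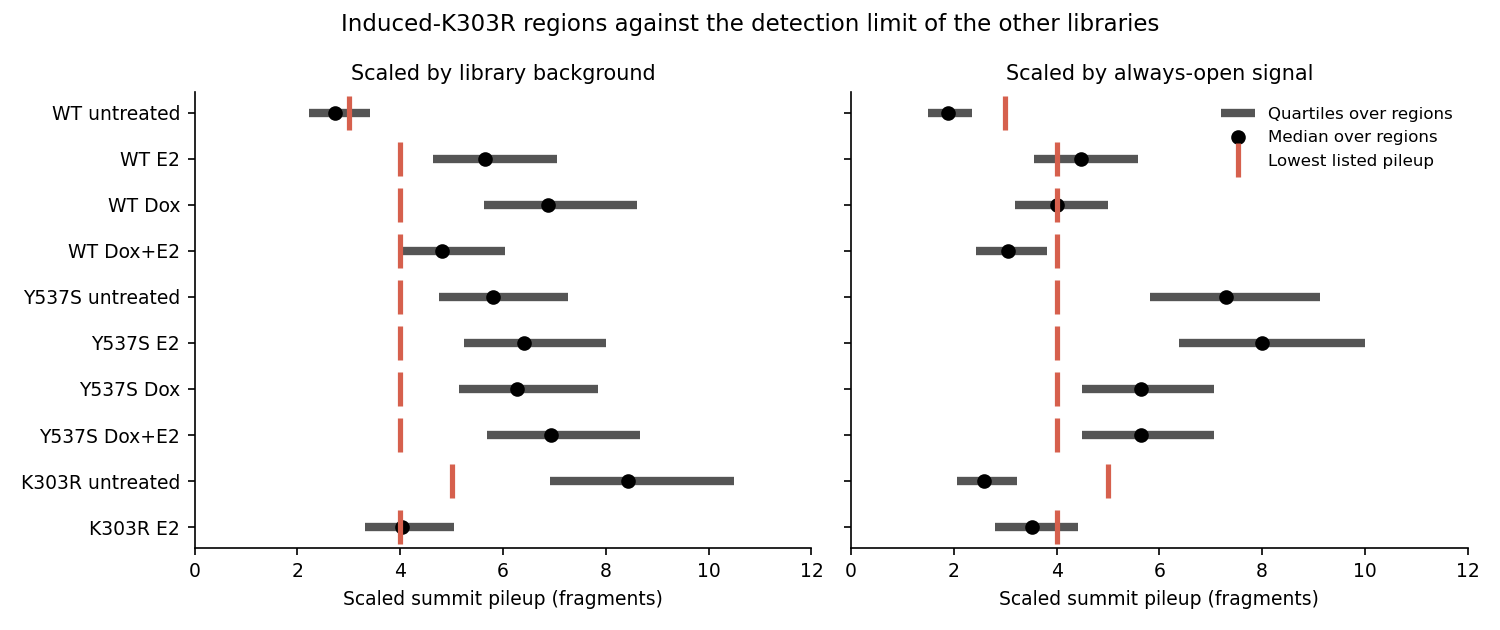
Summit pileup in fragments (horizontal axes) that the induced-K303R regions would have in each of the other 10 libraries (vertical axis), scaled by library background (left) or by the signal of regions open in all 12 libraries (right); points are medians, bars quartiles, and the red tick the lowest pileup listed in that library. In K303R untreated the median lies right of the tick by background (8.43 against 5) and left of it by signal (2.59 against 5), while in the 4 Y537S libraries it lies right of the tick in both panels.

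Equal detection limits in all 12 libraries, also chosen after seeing the data, split in the same way. With peaks counted only at 21 times the library background or more, which means a pileup of 5 or more in both induced K303R libraries, 966 regions had peaks in both induced K303R libraries alone and 3 in K303R untreated and E2 alone. In K303R untreated this limit of 21 lay near the median of 24.9 times background at always-open regions. That median was 76.3 times in K303R Dox and 88.6 times in K303R Dox+E2. The low count of 3 therefore follows in part from the limit. Of the 1015 regions, 312 were among the 966 (30.7% of the 1015 and 32.3% of the 966). With peaks counted only at 0.455 of the always-open median or more, a pileup of 8 or more in both induced K303R libraries, the counts were 141 and 191. Only 2 of the 1015 regions were among the 141 (0.197% of the 1015 and 1.42% of the 141).

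The same rule applied to the other forms gave 10337 regions for Y537S with Dox and 54 for WT with Dox by background, and 5857 and 391 by signal. As deposited it gave 1015 regions for K303R, 14817 for Y537S (8.90% of all) and 114 for WT (0.0685%), and 13 for K303R untreated and E2. In all 3 versions Y537S had the most regions.

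Recurrence between both induced K303R libraries was low among peaks seen nowhere else. Of the 6164 regions with a peak in K303R Dox+E2 and in none of the 10 other libraries, 1015 also had one in K303R Dox (16.5%), and of the 8103 such regions of K303R Dox, 1015 had one in K303R Dox+E2 (12.5%). For K303R Dox+E2 the share was 8.99% at a pileup of 3 and 30.4% at 6. K303R Dox has the same lowest listed pileup of 3 but had no added E2, and it lacked most of these weak peaks. The part of detection and of the treatment difference in this was not tested. Regions that had a peak in some other library recurred more often at each single pileup, 38.9% at 3 and 66.5% at 6. For peaks of K303R Dox the shares at 3 and 6 were 6.49% and 28.9% where no other library had a peak, against 55.4% and 77.9% where one had. The bin of 7 or more does not match strengths, since it held 249 regions of K303R Dox+E2 with no peak elsewhere and 36735 with one. These shares follow in part from the rule, which removes regions with a peak elsewhere.

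**Figure D3:**
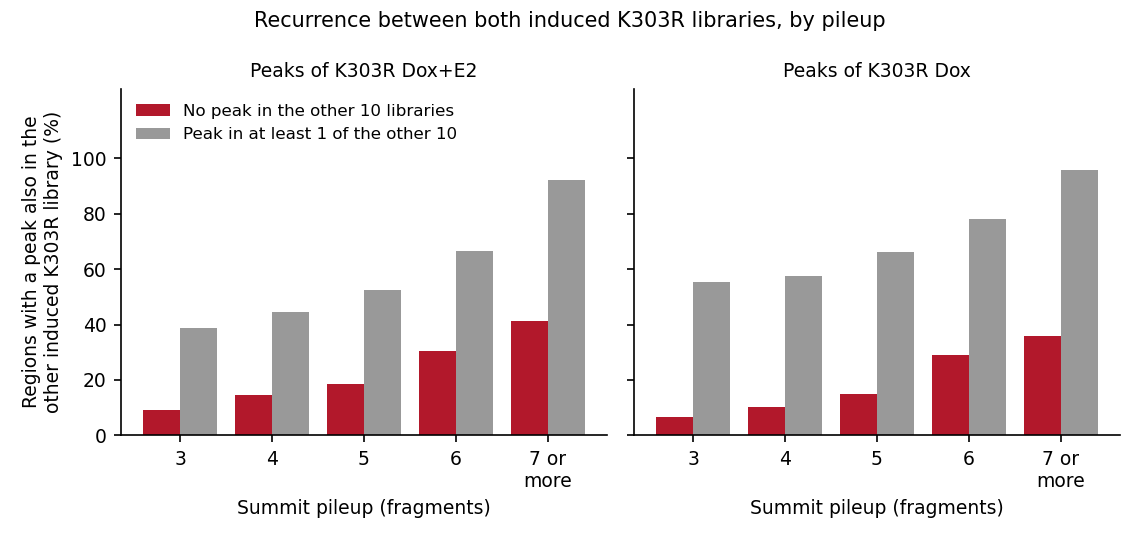
Share of regions with a peak in one induced K303R library that also had a peak in the other (vertical axis, percent), by summit pileup in fragments (horizontal axis), for peaks of K303R Dox+E2 (left) and of K303R Dox (right). Regions with no peak in the other 10 libraries (red) recurred less often than those with one (grey) at each pileup from 3 to 6, 30.4% against 66.5% at 6 in K303R Dox+E2; in the open bin of 7 or more the strengths are not matched.

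The rule asks for overlapping peaks, so the places of the summits are a description. The summits of both libraries lay a median of 54 bp apart (quartiles 24 and 97 bp), and 996 of the 1015 regions held 1 summit in each library. The regions were 150 to 718 bp wide with a median of 256 bp, against 698 bp for the other regions with a peak in both. A merged region spans the peaks of all its libraries, and the other regions have peaks in more libraries. Their greater width is therefore in part built in. Pileups of both libraries had a Pearson r of 0.18 and a Spearman coefficient of 0.17 over the 1015 regions, against 0.87 and 0.76 over the other 49648, a description over regions that share libraries and, for the members, a narrow range. Addition of E2 gave no direction that held across scalings. The pileup was higher in K303R Dox+E2 than in K303R Dox in 359 regions (35.4%), equal in 247 and lower in 409. Of the other 49648 regions with a peak in both it was higher in 48.0%, equal in 6277 and lower in 19544, so ties were less frequent there. Over background no member was tied, and 606 were higher and 409 lower, so all raw ties became higher. Divided by library background, the median ratio of K303R Dox+E2 to K303R Dox was 1.09 (quartiles 0.874 and 1.37), and 1.09 as well over the other regions. Divided by the median over always-open regions it was 0.941, and again 0.941 over the other regions.

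The strongest regions by the smaller −log10 q of both libraries are given by what their genes do. Ranks 9 to 21 tie at 7.56, so all 21 were taken. In signalling, the region inside TNFRSF11B, which encodes osteoprotegerin, a decoy receptor for the ligand RANKL (chromosome 8, 118950532 to 118951038), had a pileup of 8 in K303R Dox+E2 and 10 in K303R Dox. The region inside EPHA6, an ephrin receptor gene (chromosome 3, 97235676 to 97235847), had 7 in K303R Dox+E2 and 8 in K303R Dox. A region 17.5 kb from HEYL, a transcription factor gene of the Notch pathway (chromosome 1, 39605854 to 39606130), and one inside STK3, a kinase gene of the Hippo pathway (chromosome 8, 98784283 to 98784685), also had 7 and 8. As the rule requires, none of these regions had a peak in any other library. Their pileups in both induced libraries differed by at most 2, and ranking by the smaller value favours such regions.

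In membrane traffic and cell shape, a region 28.7 kb from MAL2, a gene for a protein of apical transport (chromosome 8, 119179546 to 119179800), and one 15.5 kb from ARFGEF2, a gene for an activator of ARF GTPases (chromosome 20, 48905929 to 48906292), had pileups of 7 in K303R Dox+E2 and 8 in K303R Dox. The region inside MTSS1, which encodes a regulator of actin at membranes (chromosome 8, 124669182 to 124669496), had 8 in K303R Dox+E2 and 7 in K303R Dox. The region inside NAV2, a neuron navigator gene (chromosome 11, 20070347 to 20070784), and the one 98.5 kb from TNR, which encodes an extracellular matrix protein of nervous tissue (chromosome 1, 175842012 to 175842361), had 7 in each library. The pileups of these 5 regions differed by at most 1 between the libraries, and the ranking favours small gaps.

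In metabolism, the region inside AHCY, which encodes the enzyme that breaks down S-adenosylhomocysteine (chromosome 20, 34310448 to 34310797), had 11 in K303R Dox+E2 and 7 in K303R Dox. The region inside CSGALNACT2, an enzyme gene of chondroitin sulfate synthesis (chromosome 10, 43140450 to 43140805), had 7 in K303R Dox+E2 and 9 in K303R Dox. A region 1.68 kb from SLC25A32, which encodes a mitochondrial carrier (chromosome 8, 103396732 to 103397053), had 7 in each, and one inside ENOX2, an oxidase gene (chromosome X, 130772472 to 130772708), had 8 in K303R Dox+E2 and 7 in K303R Dox. AHCY had the widest gap between the libraries among the 21, in favour of K303R Dox+E2.

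In nucleic acid and protein handling, a region 2.06 kb from PABPC1, which encodes a poly(A)-binding protein (chromosome 8, 100723946 to 100724292), and one inside WSB2, a gene of ubiquitin ligase complexes (chromosome 12, 118059330 to 118059541), had pileups of 8 in K303R Dox+E2 and 7 in K303R Dox. The region inside POLR1D, a gene for a shared subunit of RNA polymerases (chromosome 13, 27625759 to 27626055), had 7 in each. One region lay 70.5 kb from HMHB1, a minor histocompatibility gene, and 3 of the 21 lay outside genes with no gene end within 100 kb, on chromosomes 19, 8 and 1. Of the 21 regions, 7 lay on chromosome 8.

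Chromosome 8 also held more of the full set than of other regions. It carried 111 of the 1015 (10.9%, exact 95% interval 9.08 to 13.0%), against 5.21% of the other regions with a peak in both induced K303R libraries and 4.93% of the Y537S-only regions. Regions with a peak in 1 induced K303R library alone lay between, at 7.93%. Chromosome 10 carried 84 (8.28%, 6.65 to 10.1%), against 4.53% and 4.70%. There the regions with a peak in 1 induced K303R library alone, at 4.68%, lay near the other regions. Chromosome 6 carried 7.98%, against 5.44% and 3.64%, and chromosome X 4.43%, against 2.75% and 2.67%. Chromosomes 17 and 19 carried 1.87% and 1.48%, against 4.55% and 4.01% of the other induced K303R regions. Counting error over regions is all that these intervals hold, and the K303R sets come from the same 2 libraries.

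The K303R line also had a higher signal on parts of these chromosomes at regions open in all 12 libraries, and it had it without Dox. Over the 721 such regions beyond 30 Mb on chromosome 8, the pileup relative to the library median was higher by 0.37 on the log2 scale in K303R than in WT and by 0.34 than in Y537S, in libraries without Dox. The bounds of 30 and 80 Mb were chosen after seeing the data. In single libraries, the mean log2 pileup of this segment relative to the genome outside both segments was 0.42 in K303R Dox+E2, 0.39 in K303R Dox, 0.45 in K303R E2 and 0.40 in K303R untreated, against -0.07 to 0.08 in the 8 WT and Y537S libraries. The 4 K303R libraries did not overlap the others. Over the 320 such regions beyond 80 Mb on chromosome 10 the difference was 0.32 to WT and 0.25 to Y537S, and with Dox 0.22 and 0.14. In single libraries the mean log2 pileup there was 0.07 in K303R Dox+E2, 0.03 in K303R Dox, 0.12 in K303R E2 and 0.09 in K303R untreated. In the 8 WT and Y537S libraries it was -0.25 to -0.16. On chromosome 10 K303R thus lay near the rest of the genome and the other lines below it. Both segments together held 158 of the 1015 regions (15.6%), against 7.03% of the other induced K303R regions, 9.98% of the regions with a peak in 1 induced K303R library alone and 6.28% of the Y537S-only regions. The chromosome 8 segment held 7.44% of these single-library regions, against 4.77% of the other induced K303R regions. For the chromosome 10 segment these shares were 2.53% and 2.26%. The first 30 Mb of chromosome 8 held 8 regions (0.788%, exact 95% interval 0.341 to 1.55%), against 0.443% of the other induced K303R regions, a ratio of 1.78 beside 2.13 beyond 30 Mb, with a signal difference of 0.04 to WT and -0.05 to Y537S. On chromosome 6 K303R was higher by 0.38 than Y537S and differed by -0.01 from WT.

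Across the 23 chromosomes, the share of members over the share of other induced K303R regions had a Pearson r of 0.78, on the log2 scale of the ratio, and a Spearman coefficient of 0.87 with the K303R to Y537S signal difference without Dox, and 0.36 and 0.24 with the K303R to WT difference. The points share libraries, and the relation is a description. The part of this regional signal in the number of regions was not tested. Chromosomes 8 and 10 held 19.2% of the 1015 regions, 18.3% of the 966 with an equal limit by background and 10.6% of the 141 with an equal limit by signal.

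**Figure D4:**
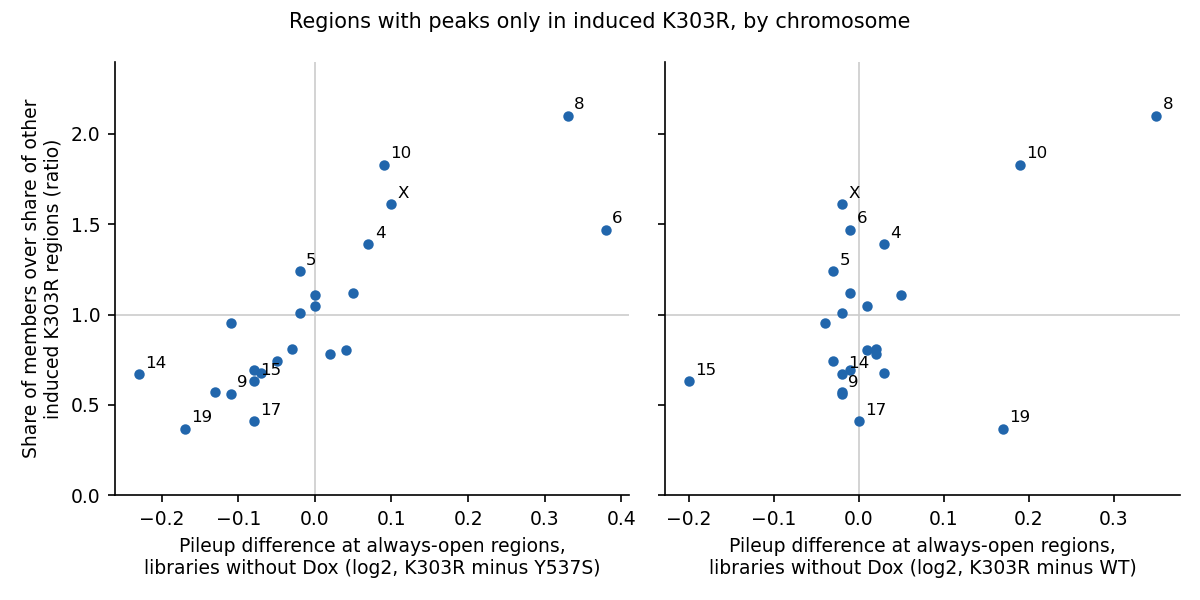
Share of induced-K303R regions on a chromosome divided by the share of other regions with a peak in both induced K303R libraries (vertical axis), against the log2 pileup difference at regions open in all 12 libraries, in libraries without Dox, between K303R and Y537S (left) and between K303R and WT (right); each point is 1 chromosome. Chromosome 8 stands highest with a ratio of 2.10, chromosome 10 follows with 1.83, and chromosome 19 is lowest with 0.369.

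Few of the regions lay at gene ends. The summit was within 1 kb of an end of a protein-coding gene in 27 of the 1015 (2.66%, exact 95% interval 1.76 to 3.85%), against 10.9% of all merged regions. Of the regions open in all 12 libraries, 41.7% were at gene ends, and the rule removes every such region. A low share therefore follows in part from the rule. Of the other regions with a peak in both induced K303R libraries and a smaller −log10 q within the range of the members, 11.6% were at gene ends (11.3 to 12%). All of these have a peak in another library, and within that range their strengths were not matched to the members. Regions with a peak in K303R Dox alone were at 5.63%, and those in K303R Dox+E2 alone at 5.22%. The shares were 4.00% for regions with peaks in the Y537S libraries with Dox alone (3.69 to 4.32%), 6.14% for the 114 WT ones (2.5 to 12.2%) and 3.09% for the 2165 regions open in all 6 Dox libraries alone. Within 1 kb of a listed gene start the order of K303R and Y537S was reversed. There the share was 3.1% of the 904 members on covered chromosomes, which leave out chromosome 8, against 2.63% of Y537S-only regions. Inside protein-coding genes were 52.9% of the 1015, against 52.4% of all merged regions, and 182 (17.9%) lay outside genes and over 100 kb from any gene end, against 13.6%. The median distance to a region open in all 12 libraries was 44.7 kb, against 57.9 kb for Y537S-only regions, and 33 of the 1015 (3.25%) lay within 10 kb of a region gained with Dox in all 3 forms, against 4.06% of Y537S-only regions. With an equal list length 8.09% of 136 regions were at gene ends. Their median smaller −log10 q of 11.11 was above the highest value of the 1015, 9.47, so many of the 136 are other regions.

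**Figure D5:**
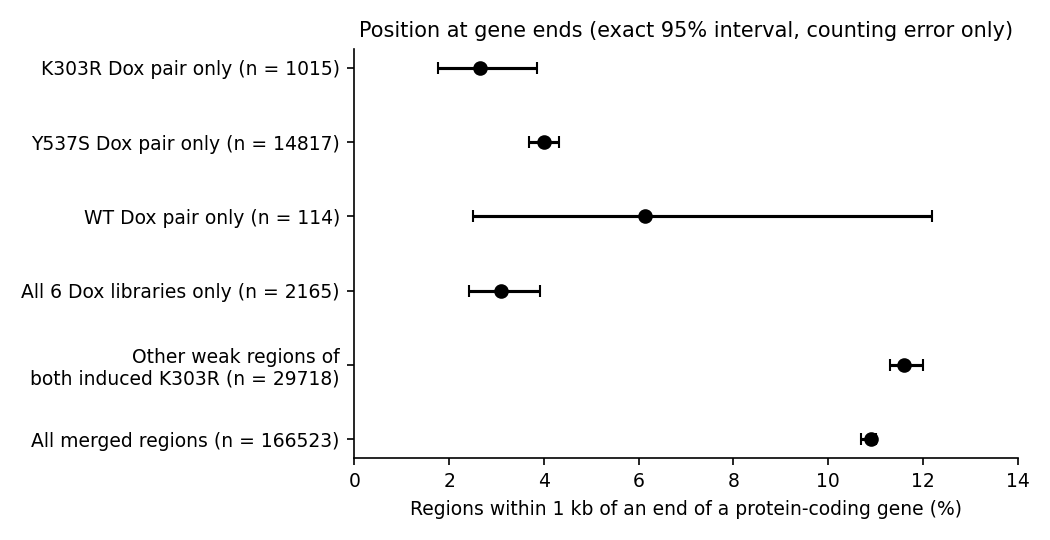
Share of regions with a summit within 1 kb of an end of a protein-coding gene (horizontal axis, percent) for 6 sets of regions (vertical axis); points are shares and bars exact 95% intervals of counting error. Induced-K303R regions stand at 2.66%, and regions open in all Dox libraries alone at 3.09%. Other weak regions of both induced K303R libraries stand at 11.6%. These all have a peak in another library, and their strengths are not matched to the members. Regions with a peak in 1 induced K303R library alone are not drawn.

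Gene by gene the regions were scattered: 1171 of 19970 protein-coding genes (5.86%) had at least 1 within 50 kb of the gene span. EXT1, which encodes an enzyme of heparan sulfate synthesis on chromosome 8, had 4, among 58 regions of any kind there. All 4 lay inside the gene, with pileups of 4 to 5 in K303R Dox+E2 and 4 to 6 in K303R Dox. PSTK, IKZF5 and ACADSB had 4 each, and these are the same 4 regions, since the genes are neighbours on chromosome 10. Of these, 3 lay inside ACADSB, an acyl-CoA dehydrogenase gene, with pileups of 5, 9 and 8 in K303R Dox+E2 and of 5, 4 and 3 in K303R Dox. A further 10 genes had 3 each, and of these MYB is described with its list. EXT1 lies in the chromosome 8 segment and ACADSB in the chromosome 10 segment, where K303R signal was higher than in WT and Y537S without Dox too.

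Estrogen response genes had a region within 50 kb in 8 of 45, against 5.86% of all protein-coding genes; of the 1067 regions in their windows 0.937% were members, against 0.563% of all regions within 50 kb of a gene. By the same window 28 of the 45 (62.2%) had a Y537S-only region, against 53.1% of all protein-coding genes, and 4 (8.89%) had a WT-only region, against 0.866%. MYB, a proto-oncogene for a transcription factor, had 3 among 18 regions, all outside the gene (44.1, 33.3 and 21.6 kb from an end), with pileups of 4, 6 and 3 in K303R Dox+E2 and of 4 in K303R Dox. RET, a receptor tyrosine kinase gene, had 1, the CSGALNACT2 region above. FKBP4, which encodes a cochaperone of steroid receptors, had 1 at 9.78 kb with pileups of 6 in K303R Dox+E2 and 8 in K303R Dox. TIPARP, FOS, IL17RB, TPD52L1 and SERPINA1 had 1 each, with a smaller −log10 q of at most 3.29.

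Nuclear receptor coregulator genes had a region in 6 of 20 (30%, against 5.86% of all protein-coding genes). Of the 430 regions in their windows 1.4% were members, against 0.563% of all regions within 50 kb of a gene. The list was also above all genes for Y537S-only regions, with 15 of 20 (75%) against 53.1%. Those inside the coactivator genes NCOA2 and NCOA3 had pileups of 3 and 4 in K303R Dox+E2 and of 5 and 4 in K303R Dox. The region inside CREBBP, an acetyltransferase gene, had a pileup of 3 in K303R Dox+E2 and 6 in K303R Dox. MED1, a gene of the Mediator complex, had a region outside the gene with 4 in each library. None of the 6 reached a −log10 q of 5 in both libraries.

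Of 24 genes of protein kinase A signalling and PAK kinases, 3 (12.5%, against 5.86% of all genes) had a region. They were PDE4D, a cyclic AMP phosphodiesterase gene with 2 among 78 regions, PDE4B and PRKACA. A Y537S-only region was near 19 of the 24 (79.2%), against 53.1% of all genes. The stronger PDE4D region had a pileup of 5 in K303R Dox+E2 and 9 in K303R Dox. Of 24 growth factor receptor and ligand genes 1 (4.17%, against 5.86% of all genes) had a region, ERBB4, inside the gene (chromosome 2, 211396887 to 211397070), with 7 in K303R Dox+E2 and 6 in K303R Dox. Of 18 luminal transcription factor genes 1 (5.56%) had any, TRPS1 with 2 among 59 regions, with 3 and 5 in K303R Dox+E2 and 3 and 8 in K303R Dox. The remaining lists had 1 or 2 genes each, 4.35 to 11.1% of the list against 5.86% of all genes: 2 of 18 androgen response genes (ABCC4 and ELL2), 1 of 23 immediate early genes (FOS), 1 of 21 interferon-stimulated genes (IRF1), 1 of 18 epithelial-mesenchymal genes (SPARC) and 2 of 23 housekeeping genes (ACTB and YWHAZ). Genes of most of these lists have more regions in their windows (medians of 12 to 26.5 per gene, the lowest in the epithelial-mesenchymal list, against 12 over all genes), and the counts are not adjusted for this.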

How the data were processed

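Each of the 12 ATAC-seq libraries has 1 peak list with hg38 coordinates that the authors deposited. The submitters' processing notes name MACS2, Bowtie2, Picard, SAMtools and FastQC; the sources used here give no versions or settings and do not say whether reads were shifted to the cut site. The deposited fold enrichment is a ratio, (pileup + 1) / (background + 1) at the summit, judged from the values, and the deposited score is 10 times the −log10 q without decimals. The deposited −log10 p and −log10 q rank peaks within a library.

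Solving this with 1 background per library gave the pileups, and those up to 20 were whole to within 7.1e-05. Totals of reads are not used here, so depth enters as background (0.143 to 0.442) and signal. Python 3.11.15, pandas 2.3.3, numpy 2.4.6 and scipy 1.17.1 were used, and merging and pileup recovery were tested on simulated data. Gene spans and starts came from RefSeq tables of GRCh38.p14; 3 list genes matched through older symbols. Intervals are exact (Clopper-Pearson, 95%) and cover counting error only.

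The rule, the regions and the gene lists were chosen with earlier results of these data known. Named regions are the 20 with the largest smaller −log10 q (21 with a tie), the 5 weakest in genome order, the 10 strongest with a peak in 1 other library, the 5 genes with most regions (4 given, because of ties) and list genes with at least 2 regions; list genes with 1 region are named outside this rule, after their values were seen. Alternatives were stricter thresholds, equal list length (39522), other overlaps, leaving out libraries, other distances and, chosen after seeing the data, detection limits scaled by always-open signal in place of background, equal detection limits by either, and leaving out chromosomes 8 and 10. The deposited per-peak values are the authors' own and only describe, rank and filter peaks. Some named regions and genes are not reported here, though they stay in the counts.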

Additional observations from a re-analysis of the deposited data

How the results depend on the processing

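No paired analysis was possible because each group is 1 library and the labels give no replicate numbers. The number of regions, 1015 as deposited, was 221 with a −log10 q of at least 5 in all 12 lists and 104 with at least 10, 94 and 0 with these thresholds in both induced K303R libraries alone, 136 at equal list length, 141 with an equal detection limit by signal and 966 by background. The number above the detection limit of all 10 other libraries was 312 by background and 2 by always-open signal. Leaving out each of the other 10 libraries gave 1033 to 1416. It was 909 with windows of equal width on summits, 832 with peaks less than 500 bp apart merged, 904 without chromosome 8 and 931 without chromosome 10. Of the 1015, only 94 reached 5 in both induced K303R libraries and none reached 10. The 104 therefore hold none of the 1015, and most of the 221 are other regions. Many of the 136 are other regions too, since their median smaller −log10 q was 11.11.

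The share at gene ends, 2.66%, was 8.09% at equal list length, 5.67% and 4.24% with an equal detection limit by signal and by background, 1.68% with near peaks merged and 9.85% at 2.5 kb. The share inside genes, 52.9%, was 56.7% and 57.4% (at least 10 in all lists, at least 5 in both K303R libraries) and 49.3% at equal list length. The share on chromosomes 8 and 10, 19.2%, was 24.4% and 12.5% at the thresholds of 5 and 10 in all lists, 28.7% at 5 in both K303R libraries, 13.2% at equal list length and 10.6% with an equal detection limit by signal. The median smaller −log10 q, 3.29, was 6.36 and 12.35 at the thresholds in all lists, 6.36 in both K303R libraries, 11.11 at equal list length and 9.47 and 4.89 with an equal detection limit by signal and by background; thresholds and limits raise it by construction. The share higher in K303R Dox+E2 than in K303R Dox was 59.7% over background, where ties of raw pileups all count as higher. It was 35.4% both for raw pileups and relative to always-open regions. For the other changes the cause was not tested. Of 10 gene lists, 5 kept a count within 1.5 times of the 50 kb count at 20 kb and 7 at 100 kb. Pileups of 3 to 5 limit what any list can show.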

Other observations

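Some regions were high in 1 of both induced K303R libraries; these were chosen after their values were seen. The region inside WWP1, a ubiquitin ligase gene (chromosome 8, 86367119 to 86367439), had the highest pileup of all, 15 in K303R Dox+E2 and 6 in K303R Dox. The region inside KCNMA1, a potassium channel gene (chromosome 10, 77168936 to 77169222), had 5 in K303R Dox+E2 and 11 in K303R Dox. Regions 4.34 kb from RAPGEF2, a gene for an activator of Rap GTPases, and 4.25 kb from IRX5, a homeobox gene, had 10 in K303R Dox+E2, against 6 and 5 in K303R Dox.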
